A study of Ginkgo biloba with 9 samples.

Results

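The last step of autumn senescence in Ginkgo biloba was examined by comparing yellow leaves, sampled on November 8, with turning leaves, sampled 13 days earlier on October 26. The comparison uses 6 of the 9 libraries of the series, 3 of yellow and 3 of turning leaves, chosen by their labelled stage and paired by the library number in their titles. The other 3 libraries are of green leaves from September 12 and serve only as an outside measure of level. Per the labels, the leaves came from 3 healthy adult trees grown outdoors under natural conditions, with no treatment and no genotype named. The labels do not say that a library number marks 1 tree, and stage and calendar date cannot be told apart because each stage was sampled on 1 day. Of 43834 gene models in the table, 21487 had enough counts in the 6 libraries to be tested, 12596 had 0 counts in all 6, and 9751 had some counts but too few for a test.

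Leaf senescence is an ordered process in which a leaf takes its own chloroplasts apart, breaks down chlorophyll, and exports nitrogen and other nutrients to the branch before the leaf is shed. In ginkgo the yellow colour appears as chlorophyll is lost and the carotenoids that remain become visible. The process needs active gene expression: photosynthesis genes are commonly turned down while genes for breakdown and transport are turned up. In the late stage the nucleus and mitochondria are still at work in cells whose chloroplasts are largely dismantled. The table gives no gene names and no name table was used here, so the described models carry identifiers only, and the stage labels could not be checked against pigment or photosynthesis genes.

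Depth was similar across the comparison. Library totals ran from 24066509 to 25466370 counts in yellow leaves and from 25078682 to 32319325 in turning leaves. Libraries of 1 stage differed from each other by far more than sampling noise, with a chi-square per degree of freedom of 48.0 to 138 in yellow and 72.1 to 107 in turning leaves. Between-library variation, as a biological coefficient of variation, was 0.39 in yellow leaves, 0.34 in turning leaves, and 0.27 once the library number was a term in the model. The p-values below reflect only how these libraries scatter, which may be partly technical. In bulk leaf samples, fewer cells of a type and less RNA per cell cannot be told apart.

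With the library scaling used here, close to as many gene models rose as fell between turning and yellow leaves. Of the tested models 21%, or 4513, rose and 23%, or 4933, fell in yellow relative to turning leaves, 44% in all (edgeR quasi-likelihood test with the library number as a block, Benjamini-Hochberg adjusted p below 0.05). The median rise among the higher models was 1.31 on the log2 scale, and the median fall among the lower models was -1.37. Over all tested models the median log2 fold change was -0.08, with quartiles of -0.80 and 0.61. The 12041 models without a call had a median absolute log2 fold change of 0.36. Of these, 1180 had a fitted difference of at least 2-fold, so models without a call need not have been level. The number depended on pair 2, the libraries numbered 2: without it 461 models were called, 365 higher and 96 lower, against 6950 without pair 1 and 9418 without pair 3.

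**Figure D1:**
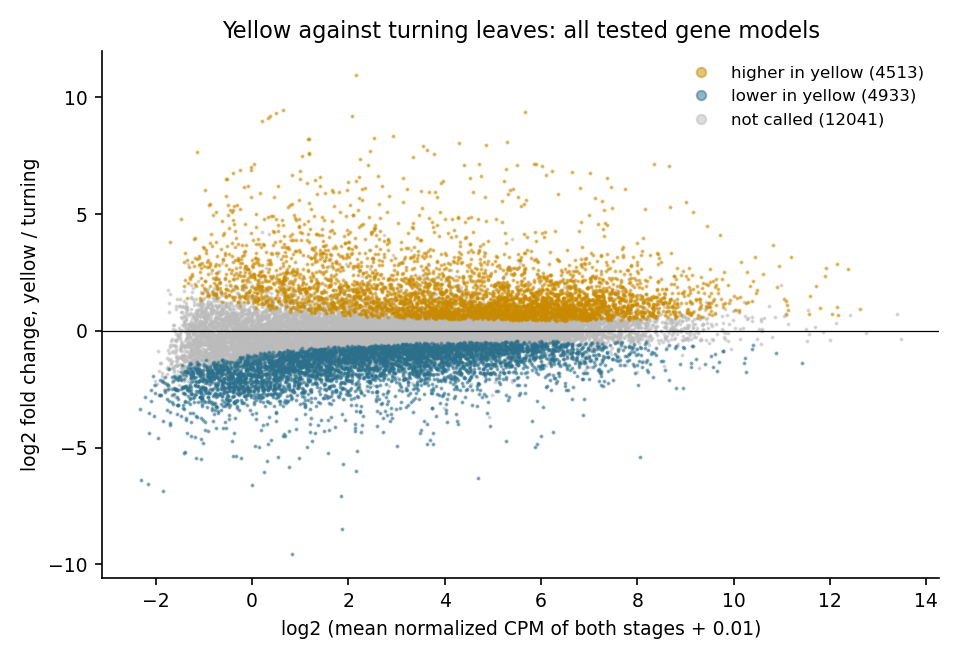
The x axis is the log2 mean normalized CPM (counts relative to a scaled library total) of the yellow and turning libraries plus 0.01, and the y axis the fitted log2 fold change of yellow over turning; each point is 1 of 21487 gene models, coloured by its call. The 4513 higher models reach further from 0 than the 4933 lower ones, and the lower ones are more frequent at low levels.

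The called models differed in abundance by direction. Models that rose had a median of 37.2 normalized CPM in yellow leaves and 14.0 in turning leaves. Models that fell had a median of 2.88 normalized CPM in yellow leaves and 7.48 in turning leaves. A mean of at least 100 normalized CPM in their higher stage was reached by 1266 of the rising and 315 of the falling models. The balance of directions depends on how libraries are scaled. The scaling used here, TMM (trimmed mean of M values), assumes that most models do not change, and its factors averaged 0.86 in yellow and 1.17 in turning leaves. Rises accounted for 47.8% of calls on the TMM scale. In the same edgeR test, RLE (relative log expression) factors put that share at 52.8%, upper-quartile factors at 38% and unscaled library totals at 23.4%. The centre of all tested models moved with it, to a median log2 fold change of -0.01, -0.24 and -0.53 in the order of those 3 alternatives. Directions of single models below are relative to the TMM scale.

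The largest changes were more often rises. Changes of at least 4-fold were called for 1197 higher models (5.57% of those tested) and 1162 lower ones (5.41%). At 8-fold the counts were 533 higher and 254 lower (2.48% and 1.18%). At 16-fold they were 258 higher and 80 lower (1.2% and 0.372%), and at 32-fold 137 higher and 25 lower (0.638% and 0.116%). With library totals, which shift all fold changes down, falls outnumbered rises at 4-fold and at 8-fold, with 796 higher and 2158 lower, and 360 higher and 523 lower. At 16-fold rises still outnumbered falls there, by 194 to 124. Pair 3 mattered for this balance: without it 268 models were higher and 161 lower at 16-fold, and without pair 2 the counts were 144 and 20.

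**Figure D2:**
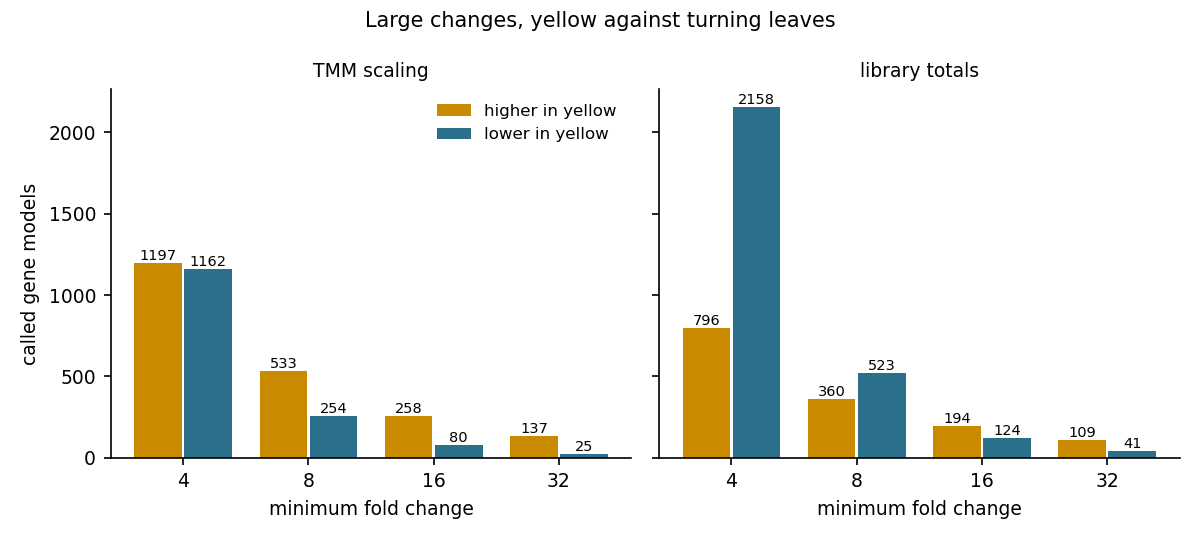
Bars give the number of called gene models that changed by at least 4, 8, 16 or 32 times, higher in yellow (left bar of each group) and lower in yellow (right bar), with TMM scaling and with library totals. With TMM the rises outnumber the falls at 8-fold and above (533 against 254 at 8-fold), and with library totals at 16-fold and above (194 against 124 at 16-fold).

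Most models with very large rises were scarce in turning leaves. The 258 models that rose at least 16-fold had a median of 9.41 normalized CPM in yellow leaves and 0.228 in turning leaves, where 190 of them were below 1 CPM. In green leaves, which did not enter the test, their median was 0.136. There 218 of them (84.5%) were below 1 CPM, against 11.3% of all tested models. The scarcest of the 258 could pass the count filter only through the yellow libraries, so these levels describe the set and support nothing further. Their levels in yellow leaves varied: 126 reached 10 normalized CPM and 39 reached 100. The 80 models that fell at least 16-fold had a median of 0.112 normalized CPM in yellow leaves and 3.44 in turning leaves, and of 8.67 in green leaves. Only 18 of these 80 reached 10 normalized CPM in turning leaves, so most very large falls concerned scarce transcripts. For these, a fitted fold change rests on few counts in the lower stage.

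The choice of 4 models to describe in full took, in each direction, the model with the largest difference in mean CPM and the one with the largest remaining fold change. Candidates had to be called, have counts in all 6 libraries, reach a mean of 10 normalized CPM in the higher stage, and show no overlap between stages. That left 3062 rising and 1973 falling candidates. The calls and the lack of overlap given below follow from this choice and are no further evidence. All values in the following paragraphs are normalized CPM, and the functions of these models are not given because no source used here names them.

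Gb_07845 gained more transcript than any other candidate. It had 7850, 11400 and 8280 CPM in yellow libraries 1, 2 and 3, against 1080, 1490 and 1950 in turning libraries 1, 2 and 3. All 3 yellow libraries lay far above all 3 turning libraries. The means were 9180 ± 1950 CPM in yellow and 1510 ± 437 CPM in turning leaves (SD, n = 3 each), a gain of 7670 CPM. It ranked 3 by mean level among tested models in yellow leaves and 35 in turning leaves. The log2 fold change was 2.63 ± 0.27 (SE; edgeR quasi-likelihood test, adjusted p = 0.00381), or 6.18-fold. It lost its call without pair 2, at a log2 fold change of 2.47 (edgeR adjusted p = 0.06). In green leaves, on a scale set over all 9 libraries, it had 653, 564 and 676 CPM.

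Gb_40266 was at a moderate level in yellow leaves and near the limit of detection in turning leaves. It had 41.5, 81.8 and 110 CPM in yellow libraries 1, 2 and 3, against 0.275, 0.238 and 0.296 in turning libraries 1, 2 and 3. The turning values rest on 8, 8 and 11 counts, while the yellow libraries held 928, 1698 and 2250 counts. The stages were separated by over 2 orders of magnitude in every pair, with library 1 the lowest of the yellow libraries. The log2 fold change was 8.10 ± 0.33 (SE; edgeR quasi-likelihood test, adjusted p = 0.00213), and it kept its call under every alternative run, between 7.65 and 8.51. Green libraries 1, 2 and 3 held 3, 4 and 12 counts, so the model was scarce in September too.

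Gb_37968 lost more transcript than any other candidate and was still abundant in yellow leaves. It had 2150, 1290 and 1290 CPM in yellow libraries 1, 2 and 3, against 3640, 4010 and 4160 in turning libraries 1, 2 and 3. The stages did not overlap, as the choice required, and yellow library 1 stood nearest to the turning libraries. The means were 1570 ± 496 CPM in yellow and 3930 ± 269 CPM in turning leaves (SD, n = 3 each), and its rank was 60 in yellow and 8 in turning leaves. The log2 fold change was -1.37 ± 0.26 (SE; edgeR quasi-likelihood test, adjusted p = 0.0135), and without pair 2 it was -1.23 and not called (edgeR adjusted p = 0.129). On the scale set over all 9 libraries, its green-leaf values were 8140, 6060 and 4410 CPM.

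Gb_41780 showed the largest fold decline among the remaining candidates. It had 4.25, 30.9 and 5 CPM in yellow libraries 1, 2 and 3, against 429, 1010 and 124 in turning libraries 1, 2 and 3. Library 2 was the highest in both stages, and the lowest turning library still exceeded the highest yellow library. The log2 changes within pairs 1, 2 and 3 were -6.63, -5.03 and -4.61. The fitted log2 fold change was -5.42 ± 0.50 (SE; edgeR quasi-likelihood test, adjusted p = 0.00386). Without pair 2 it was -5.64 and not called (edgeR adjusted p = 0.0539). Without the block it reached -6.81 when yellow library 2 was left out and -4.38 when turning library 2 was left out. Green libraries 1, 2 and 3 had 457, 5100 and 1210 CPM, again with library 2 the highest.

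**Figure D3:**
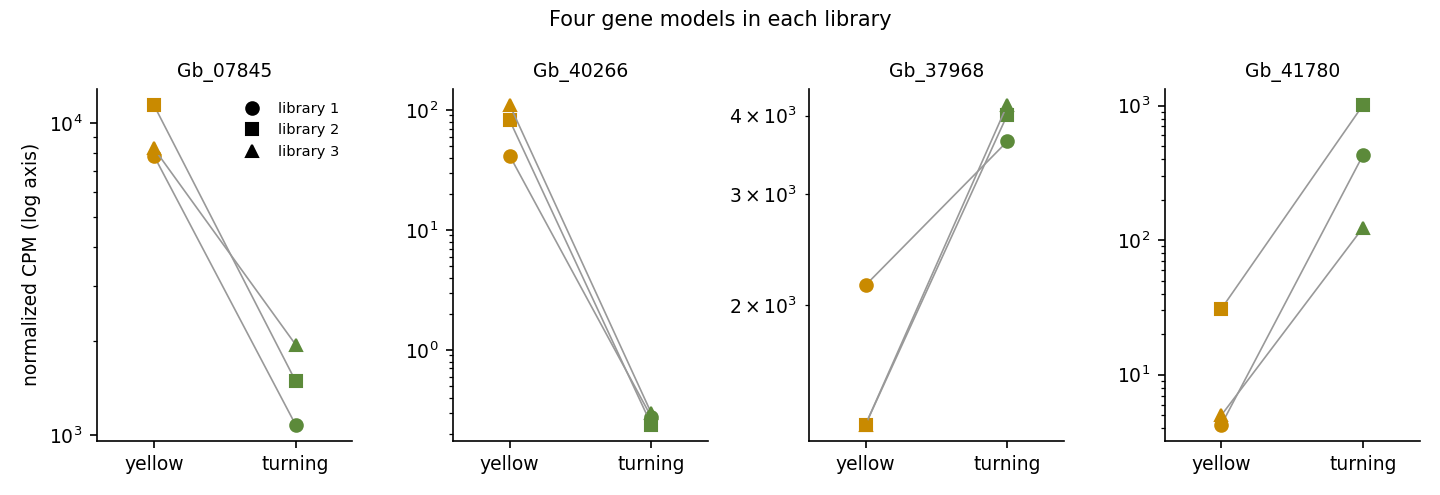
Normalized CPM (log axis, one scale per panel) of Gb_07845, Gb_40266, Gb_37968 and Gb_41780 in each yellow library (left) and turning library (right), with a grey line joining libraries of the same number and a symbol for each number. The stages do not overlap in any panel, which the choice of models required. Gb_40266 stands at 41.5 to 110 CPM in yellow and 0.238 to 0.296 CPM in turning leaves.

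The messenger RNA pool was concentrated on fewer models in yellow leaves. The most abundant models that together hold 50% of all counts numbered 703, 620 and 716 in yellow libraries 1, 2 and 3, against 929, 923 and 944 in turning libraries 1, 2 and 3. Every yellow library needed fewer models than every turning library, with differences of -226, -303 and -228 models within pairs 1, 2 and 3 (exact sign-flip permutation test, two-sided, p = 0.25, the smallest it can give with 3 pairs). The 1000 most abundant models of each library took a share of counts that was higher in yellow than in turning leaves by 5.09, 6.88 and 5.20 percentage points within pairs (exact permutation p = 0.25). The 10 most abundant models did not follow this in every pair: their share differed by 1.10, 1.28 and -0.155 percentage points, yellow minus turning (exact permutation p = 0.5). The number of models at 1 CPM or more, taken on library totals, was lower in yellow leaves, with differences of -1715, -1979 and -1497 within pairs (exact permutation p = 0.25). On TMM-scaled totals those differences were -846, -842 and -474. With all libraries thinned to equal totals, the differences in the number of models with at least 1 count were -366, -42 and -270, and yellow and turning libraries overlapped (exact permutation of 3 against 3 libraries, p = 0.3).

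Rising models came to hold close to 50% of the counts of yellow leaves. The 4513 higher models took 46.9%, 50.5% and 50.8% of all counts in yellow libraries 1, 2 and 3, against 23.7%, 26.0% and 29.1% in turning libraries 1, 2 and 3. The 4933 lower models took 6.73%, 5.84% and 6.04% in yellow libraries, against 19.4%, 18.9% and 17.2% in turning libraries. These sets were selected on the same libraries, so the shares describe them and test nothing. Large gains outnumbered large losses: 40 models gained and 3 lost at least 1000 normalized CPM. Gains were spread over many models, with 207 of the higher models making up 50% of the summed gain and the 10 largest making up 12.9%. The summed gain was 351800 CPM and the summed loss 86210 CPM on the TMM scale. On library totals, where gains and losses over all models must cancel, they were 192700 and 186300 CPM, and 20 models gained and 10 lost at least 1000 CPM.

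The leading transcripts were reshuffled in part. The 100 models of highest mean level in yellow leaves and the corresponding 100 of turning leaves had 62 in common. The lists were chosen on these libraries, so their direction is no independent evidence. The yellow list held 58 rises, 2 falls and 40 models without a call, where 21% and 23% of all tested models were higher and lower. They took 23.9%, 25.8% and 21.6% of the counts in yellow libraries 1, 2 and 3, against 16.5%, 18.2% and 18.3% in turning libraries. Of the 38 models that led in yellow but not in turning leaves, 34 were called higher, and the one that climbed furthest stood at rank 1718 in turning leaves. Of the 38 that led only in turning leaves, 18 were called lower, and the one that dropped furthest stood at rank 1651 in yellow leaves. With TMM the 100 leading models of turning leaves held 24 rises and 20 falls, and with library totals 11 rises and 31 falls. Of the 10 most abundant models of each stage, 5 were shared.

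Few models could be called as present in 1 stage and absent in the other. With counts in yellow libraries and 0 in all 3 turning libraries there were 1753 models, but only 132 of them had a count in every yellow library. The fit tested 7 of these, and all 7 were called higher, which the filter makes likely because a model at 0 in turning leaves could pass it only through the yellow libraries. Their mean in yellow leaves reached at most 8.90 normalized CPM. Set against a floor of 3 counts over the 3 turning libraries, 0.0300 CPM, the median of the 7 was at least 85.2-fold higher and the largest at least 296-fold higher. Of the 7 models, 5 also had 0 counts in all green libraries, as did 0.2% of all tested models. Most tested models were not selected for 0 counts in a stage, so these shares are not alike and only describe the 7. In the other direction 1736 models had 0 counts in yellow and some in turning libraries, 198 of them in every turning library. Of these 4 were tested and called lower, with a median at least 10.3-fold lower against the yellow floor of 0.0472 CPM. Floors cover counting error only.

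The level of a model in green leaves went with the kind of late change. Tested models were put into 3 classes of equal size by their mean in the green libraries. The lowest class, which reached 4.16 CPM, held 1553 rises (21.7% of the class) and 1113 falls (15.5%) in yellow relative to turning leaves. The middle class, which reached 20.8 CPM, held 1290 rises (18%) and 2064 falls (28.8%) and its median log2 fold change was -0.23. The highest class held 1670 rises (23.3%) and 1756 falls (24.5%). Of all tested models 21% rose and 23% fell, so the lowest class differed in its share of falls and hardly in its share of rises. Large rises gathered in models that were scarce in green leaves: 885 of the 1197 rises of at least 4-fold were in the lowest class, 202 in the middle and 110 in the highest class. Falls of at least 4-fold were divided more evenly over these 3 classes, with 484, 446 and 232. That evenness depends on the cut. With 5 classes, from lowest to highest, such falls numbered 173, 454, 249, 148 and 138, and such rises 755, 180, 118, 91 and 53. A model scarce in green leaves could enter the test only through its turning or yellow libraries, which favours models that changed, and how much of the pattern this makes was not tested. With library totals the lowest class turned to 1177 higher and 2048 lower models.

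**Figure D4:**
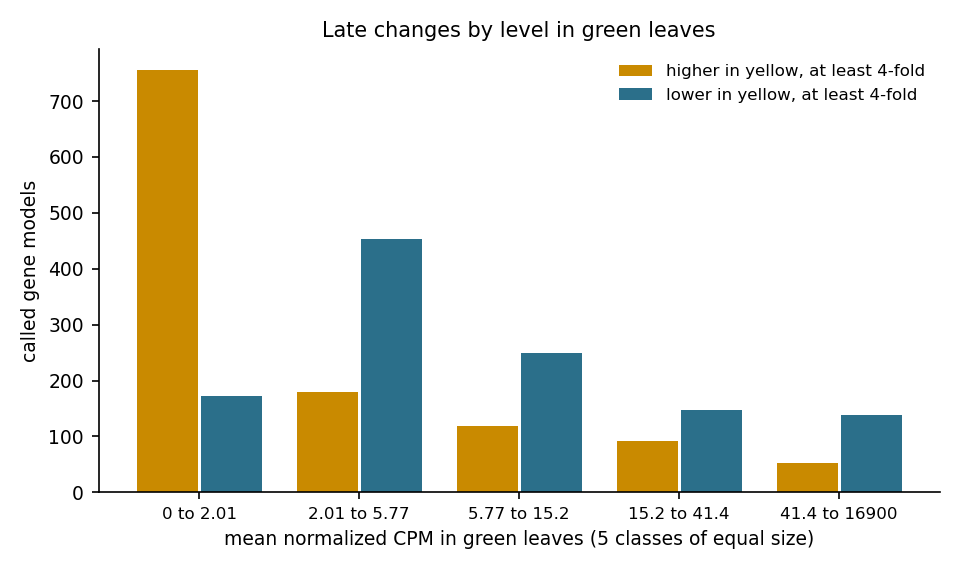
Bars give the number of gene models called with at least a 4-fold change between yellow and turning leaves, in 5 classes of equal size by mean normalized CPM in green leaves, higher in yellow (left bar) and lower in yellow (right bar). The lowest class, up to 2.01 CPM, holds 755 rises and 173 falls, and the next class, up to 5.77 CPM, 180 rises and 454 falls.

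The 3 pairs of libraries changed by similar amounts and mostly in the same models. The median absolute log2 change was 0.75, 0.76 and 0.71 in pairs 1, 2 and 3, and the SD over models was 1.38, 1.37 and 1.38. Across 21487 models, which are not independent replicates, the changes in pairs 1 and 2 correlated with r = 0.83, those in pairs 2 and 3 with r = 0.81, and those in pairs 1 and 3 with r = 0.67. Pairs 1 and 3 had the same sign for 76.3% of models, against 83.2% for pairs 1 and 2 and 82.4% for pairs 2 and 3. In all 3 pairs 32.3% of tested models were higher in yellow leaves and 38.7% lower. The stages did not overlap for 24.4% of models with yellow above turning and for 29.5% with yellow below turning.

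**Figure D5:**
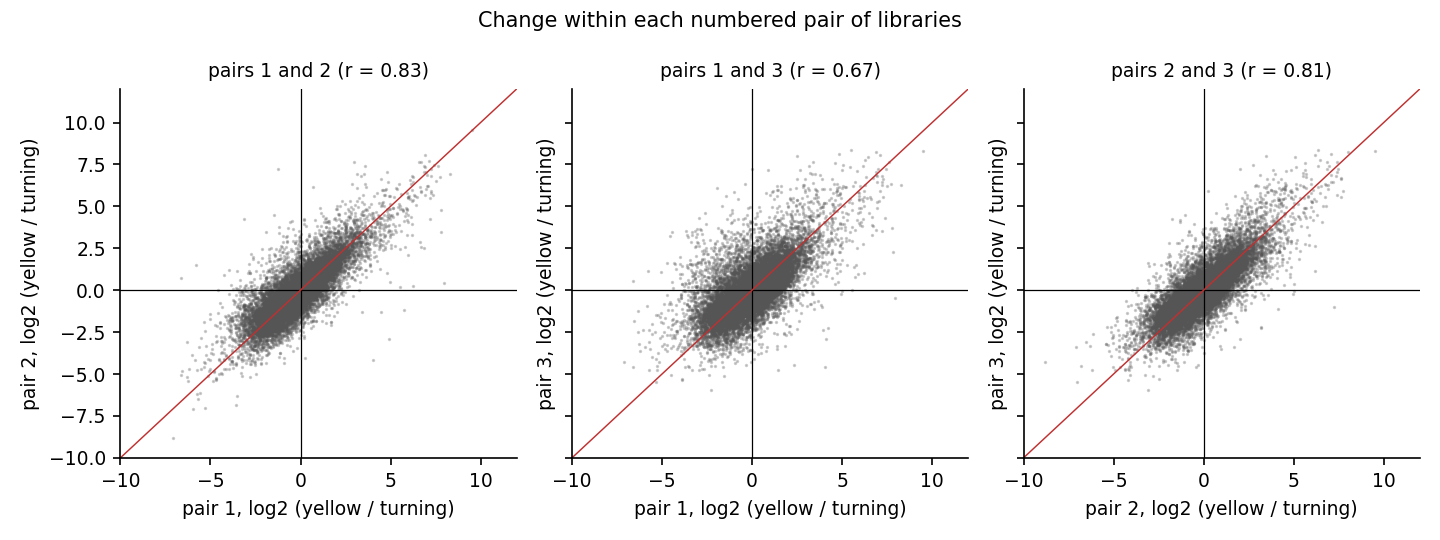
Each point is 1 of 21487 gene models, placed by its log2 change (yellow over turning) in one numbered pair of libraries on the x axis and in another on the y axis; the red line marks equal change. Pairs 1 and 3 scatter more (r = 0.67) than pairs 1 and 2 (r = 0.83) or pairs 2 and 3 (r = 0.81).

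Pairs 1 and 3 agreed less over all tested models, and a small set changed strongly in opposite directions. Changes of at least 4-fold in opposite directions were seen for 54 of 21487 models in pairs 1 and 3. Pairs 1 and 2 had 5 such models, and pairs 2 and 3 had 3. Of the 54 models, 44 rose in pair 3 and fell in pair 1. This set was chosen after the values were seen. The medians of the 44 were 3.22, 6.60 and 27.0 normalized CPM in yellow libraries 1, 2 and 3, against 29.6, 3.91 and 3.11 in turning libraries 1, 2 and 3. The order within pairs 1 and 3 follows from how the set was chosen, while pair 2, which was not used to choose it, was low in both stages. Over all tested models, the stage accounted for 62.4% of the variance of log2 normalized CPM, the library number for 26.4% and the remainder for 11.2%. By edgeR's quasi-likelihood test 17 models differed among the 3 numbers (adjusted p below 0.05), and by limma-voom 1 did, in a comparison added after the data were seen.

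Identifiers in the table carry the prefix Gb_ or a second prefix, and models with the second prefix, 1439 of those tested, were divided differently. Among them 324 were higher (22.5%) and 225 lower (15.6%), and among Gb_ models 4189 were higher (20.9%) and 4708 lower (23.5%). Models with the second prefix made up 12.2% of the rises and 4.65% of the falls of at least 4-fold, where they made up 6.7% of all tested models. Their share of all counts was 3.85%, 4.16% and 3.96% in yellow libraries 1, 2 and 3, against 3.55%, 3.40% and 3.45% in turning libraries 1, 2 and 3, without overlap. The difference between the prefixes was not tested, and the sources used here do not say how the second set of models was defined.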

How the data were processed

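RNA sequencing libraries of yellow and turning Ginkgo biloba leaves, 3 each, were compared. The authors deposited unnormalized whole-number counts of reads for each gene model and library. CASAVA 1.8, HISAT2 2.0.4 and HTSeq 0.6.1 appear in the submitters' processing notes, with no roles. The build, annotation and strandedness of counting are not stated there, so reads shared between near-identical, overlapping or antisense models could not be recognised.

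The analysis used edgeR 4.0.16 under R 4.3.3. Low-count models were removed by filterByExpr (minimum count 10, minimum total 15), and libraries were scaled by TMM. A quasi-likelihood model (robust = TRUE) had stage and library number as terms and 2 residual degrees of freedom. P-values were two-sided and Benjamini-Hochberg adjusted over all 21487 models, with a threshold of 0.05. SE was the fold change over the root of its F statistic. Normalized CPM are counts relative to TMM-scaled totals. Changes within pairs used log2 CPM with a prior count of 2. Whole-library measures were tested by exact permutation: within pairs p cannot go below 0.25, and 3 against 3 libraries cannot go below 0.1. The fit was tested on simulated data, with the outcome not reported here, and no call rests on it.

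The labels do not state that numbers pair libraries. The comparison was set up with the numbers as pairs. Deviations from the stage means correlated with r = 0.21, 0.62 and 0.40 for same-numbered libraries and between -0.50 and 0.07 for the others. Deviations cancel out within a stage, so positive values for same-numbered libraries force lower ones for the others. These correlations are therefore only a weak check of the pairing. Alternatives were other scalings, filters, tests (DESeq2 1.42.0, limma 3.58.1), no block, all 9 libraries, and libraries left out. The comparison, the measures and the rule for the 4 described models were chosen with earlier results of these data known.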

Additional observations from a re-analysis of the deposited data

How the results depend on the processing

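Without the replicate block 8089 models were called, 7794 of them among the 9446 called with it and in the same direction. Leaving out 1 pair gave 461 to 9418 calls, of which 49.6% to 79.2% were higher, with both the 461 and the 79.2% from leaving out pair 2. Leaving out 1 library without the block gave 5108 and 4764 calls without turning library 1 or 2, 6196 and 5725 without yellow library 1 or 2, and 6676 and 7149 without turning or yellow library 3. A test against a 2-fold change called 2337 models. Under library totals 23.4% of calls were higher and the median log2 fold change was -0.53, and with upper-quartile factors the median was -0.24. In the lowest green class 2048 models were lower with library totals. With 5 classes on the TMM scale the lowest class is smaller, 4298 models up to 2.01 CPM against 7163 up to 4.16 CPM. It held 1160 rises and 368 falls, and the next class 616 rises and 1185 falls. Without a filter, 51 models at 0 in turning and 30 at 0 in yellow leaves were called, against 7 and 4. A limit of 90% in place of 80% left 11 models carried by 1 yellow library and 6 by 1 turning library. Models differing among the library numbers came to 57 with library totals and 1 with limma-voom. The remaining fits to all compared libraries gave 8666 to 11737 calls, and no alternative run reversed the direction of the 4 described models. Fits without a pair have 1 residual degree of freedom, and the cause of the low number without pair 2 was not tested.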

Other observations

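Some moderately expressed models were carried by a single library. Among models with a mean of at least 10 normalized CPM in a stage, 58 of 9912 in yellow leaves and 33 of 10020 in turning leaves had over 80% of the stage's summed level in 1 library. Of the 58, yellow library 3 carried 51, yellow library 2 carried 5 and yellow library 1 carried 2. Turning library 1 carried 20 of the 33.

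The 51 models carried by yellow library 3 had medians of 6.39, 6.85 and 95.2 CPM in yellow libraries 1, 2 and 3, against 11.4, 2.70 and 12.6 CPM in turning libraries 1, 2 and 3, on a scale set over all 9 libraries. In green libraries 1, 2 and 3 their medians were 0.959, 0.918 and 8.37 CPM, and green library 3 was the highest green library for 43 of the 51. Turning library 3 was the highest turning library for 29. How often library 3 was the highest among all tested models was not counted, so the 43 and 29 only describe this set. The 51 models held 1.2% of the counts of yellow library 3. Of the 51, 14 were called higher and 1 lower in yellow than in turning leaves. Of all tested models 21% were higher and 23% lower. The 51 were chosen for a high level in yellow library 3, which favours rises, so this split only describes them. No source used here names these models, and what they share was not tested.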
